A study of Saccharomyces cerevisiae with 90 samples.

Results

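FLO11 encodes a heavily glycosylated cell-surface adhesin, a flocculin, of the budding yeast Saccharomyces cerevisiae. It was followed through every group of a study of growth in liquid and on solid substrates. The gene was found by its symbol in the array annotation: 1 of 10928 probe sets carries it, and it is 1 of 5449 genes tested. As background, Flo11 is anchored in the cell wall, where it holds cells to each other and to surfaces and is needed for invasive and filamentous growth. Its long promoter gathers several signals. The filamentation MAP kinase cascade runs from the mucin Msb2 through the kinases Ste11 and Kss1 to the transcription factors Ste12 and Tec1, protein kinase A acts through Flo8 and Sfl1, and glucose repression acts through Nrg1 and Nrg2.

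The study measured total RNA on 90 Affymetrix arrays in 29 groups, with the stated aim of finding the response of the genome to touch. Each group has 3 arrays, lettered A to C, but the 0 h wild-type group from SD agar has 6 (A to F). Unless another time is given, cells were sampled after 6 h. On SD medium, agar and liquid groups were taken of each of 10 strains. The Kss1K42R strain carries an altered form of the MAP kinase Kss1. The tec1, msb2 and flo11 knockouts each lack the named gene. STE11-4 and MSB2* are alleles of the cascade's kinase Ste11 and of its mucin Msb2, carried on the plasmids pRS313 and pRS316, and the bare plasmids are their controls. The arrays labelled PGAL1-FLO11 name a fusion of the GAL1 promoter, which galactose switches on and glucose off, to FLO11, and were made on SD and SG medium. Wild-type was also grown on SD gelatin, on SLAD and SG agar and liquid, and taken at 0 h from SD agar and SD liquid. In common yeast usage SD is synthetic medium with glucose, SLAD its form with low ammonium and SG the form with galactose, while the labels give only the abbreviations. The labels state neither the parent strain, mating type or ploidy, nor whether the arrays of a group come from independent cultures or the mutants from 1 clone each. Titles of the liquid arrays of pRS313, STE11-4 and wild-type at 0 h carry a small b, which is not explained. Comparisons of these groups with groups that lack the mark coincide with it, and its part was not tested.

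Values are log2 signals, so 1 unit is a 2-fold difference in signal, and means are given ± standard deviation (SD). Differences are log2 ± standard error (SE) from 1 limma model over all 90 arrays, with p-values adjusted by the Benjamini-Hochberg method over the 5449 genes of each comparison. A difference was called at an adjusted p under 0.05. Groups of 3 arrays cannot give an exact permutation p below 0.1, so the model is the test throughout. The background limit of an array, taken as the 95th percentile over probe sets that match no gene of this yeast, was 5.72 to 6.33. The brightest values of an array were 15.52 to 15.63, and its 98th percentile 14.52 to 14.67. A group was marked as near the top of the range where FLO11 reached the 98th percentile on every one of its arrays.

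The labels were first set against the genes they name. In the flo11 strain the probe set read 6.51, 7.04 and 6.75 on agar and 6.40, 7.28 and 6.12 in liquid. All 6 arrays are a little above their background limits, and this is the floor of the probe set. Agar minus liquid was 0.17 ± 0.29 there (limma adjusted p = 0.702). In the tec1 strain TEC1 was at 5.67 ± 0.04 with agar and 5.30 ± 0.06 with liquid, and in the msb2 strain MSB2 was at 4.99 ± 0.21 and 4.78 ± 0.63 (SD, n = 3 each). HIS3, the marker gene of pRS313, read 13.55 on agar and 14.05 in liquid with STE11-4 and 14.42 and 14.63 with the bare plasmid. URA3, the marker of pRS316, read 12.60 and 11.94 with MSB2* and 13.44 and 13.38 with the bare plasmid, but 4.40 and 4.56 in the msb2 strain and 4.70 and 4.61 in wild-type. The msb2 strain is therefore not matched to pRS316 in URA3. GAL1, the galactokinase gene, read 15.31 on agar and 15.32 in liquid in SG in the arrays labelled PGAL1-FLO11, and 8.33 ± 0.32 in SD liquid. FLO11 in those SD arrays stood near wild-type and did not follow GAL1, so the label is used as a name only.

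Over the 27 groups other than the flo11 knockout, FLO11 means spanned 5.20 log2, the rank of 110 among the spans of all genes tested. The lowest means came from liquid SLAD and SD cultures. Wild-type in SLAD liquid averaged 10.01 ± 0.24, pRS313 10.05 ± 0.10, tec1 10.11 ± 0.41, Kss1K42R 10.30 ± 0.08 and wild-type 10.41 ± 0.16. Next came the liquid cultures labelled PGAL1-FLO11 in SD at 10.64 ± 0.38 and msb2 at 10.79 ± 0.17. The 0 h groups followed at 11.50 ± 0.66 for agar (n = 6) and 11.97 ± 0.64 for liquid. A higher band, still in SD liquid, held pRS316 at 12.71 ± 0.52, STE11-4 at 13.03 ± 0.78 and MSB2* at 13.29 ± 0.50. Every agar group at 6 h, the gelatin group and both SG liquid groups stood above these, from 14.11 ± 0.13 in pRS313 on agar to 15.21 ± 0.03 in PGAL1-FLO11 on SG agar (n = 3 where not stated).

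Of the 26 pairs of neighbours in this order, 23 had overlapping arrays and 3 did not. Most neighbours in the order thus do not differ beyond their spread, and the bands are clearer than the ranks within them. The 12 agar groups at 6 h without the flo11 strain spanned 1.11 log2, and the 12 liquid groups spanned 5.17. Arrays also scattered less on agar, where the SD of a group was between 0.02 and 0.45 with a median of 0.08. In liquid it was between 0.03 and 0.78 with a median of 0.28.

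**Figure D1:**
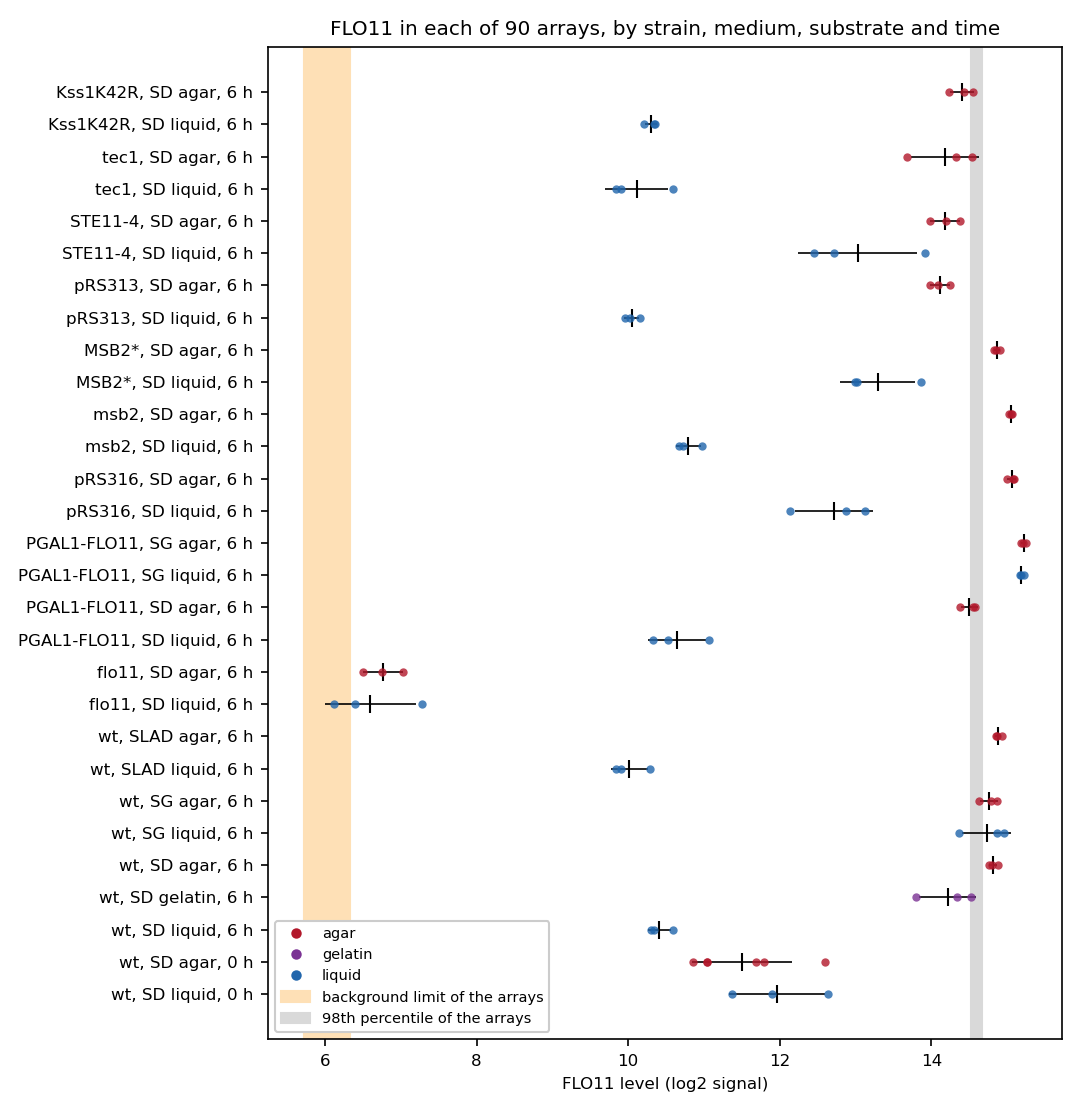
FLO11 log2 signal (horizontal axis) in each of the 90 arrays, 1 row for each of 29 groups. Points are arrays coloured by substrate, the vertical tick and bar are mean ± SD, and the shaded bands are the ranges over arrays of the background limit and of the 98th percentile. Outside the flo11 strain, agar points at 6 h crowd at the right, while liquid points spread from 9.85 to 15.22.

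FLO11 was near the top of the range, by the rule above, in 8 groups. These were wild-type on SD, SLAD and SG agar, MSB2*, msb2 and pRS316 on SD agar, and PGAL1-FLO11 in SG on agar and in liquid. With the 97th percentile the count was 10 groups and with the 99th it was 4. The within-group SD in these 8 groups was at most 0.12, against a residual SD of 0.36 for FLO11 over all groups, which is larger than that of 97.1% of genes. The median gene had 0.16. The means of these groups ran from 14.76 to 15.21, against brightest values of 15.52 to 15.63, so the room for a higher reading was limited. Whether the signal was saturated there was not tested.

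Wild-type cells on SD agar carried far more FLO11 signal than in SD liquid. The agar arrays read 14.76, 14.80 and 14.88 and the liquid arrays 10.30, 10.59 and 10.35, with no overlap. The difference was 4.40 ± 0.29, a 21.1-fold ratio and the highest change among all genes (limma adjusted p = 7.72e-20). In this comparison 30.8% of all genes were called higher and 21.1% lower, or 1678 and 1151 genes. The split was 1467 and 1233 after quantile normalization and 1344 and 1374 with each array centred on its median. On gelatin the arrays read 13.79, 14.33 and 14.52, and the difference from liquid was 3.80 ± 0.29 (limma adjusted p = 1.30e-16), where 15.6% of all genes were higher. Array A, the lowest of the 3, also stood apart over the whole array, and with 1 gelatin or liquid array left out the difference stayed between 3.65 and 4.01. Agar and gelatin arrays did not overlap, yet their difference of 0.60 ± 0.29 did not pass (limma adjusted p = 0.179).

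At 0 h the agar and liquid arrays overlapped. The agar arrays read between 10.85 and 12.59 with a median of 11.37 (A to F), and the liquid arrays read 11.89, 11.37 and 12.63. Agar minus liquid was -0.47 ± 0.25 and did not pass (limma adjusted p = 0.121). The call depends on the arrays used: it passed without agar array D (-0.68, limma adjusted p = 0.0145) or liquid array B (-0.76, limma adjusted p = 0.0264), and the difference was -0.13 without liquid array C. With agar arrays A to C alone it passed at -0.74 (limma adjusted p = 0.0196), and with D to F alone it was -0.19 (limma adjusted p = 0.616). From 0 h FLO11 moved in opposite directions. At 6 h it was 3.31 ± 0.25 higher than at 0 h on agar, again the highest change of all genes (limma adjusted p = 1.60e-16), where 10.2% of genes were higher. In liquid it was 1.55 ± 0.29 lower at 6 h than at 0 h (limma adjusted p = 9.67e-06), where 35.5% of genes were lower and 20.3% higher. The agar difference at 6 h exceeded that at 0 h by 4.87 ± 0.39 (limma adjusted p = 4.91e-16), and 28.2% of genes had a larger agar difference at 6 h.

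FLO11 in wild-type differed between SG and SD in liquid, and no other difference of SLAD or SG from SD passed on agar or in liquid. In SLAD the agar arrays read 14.93, 14.86 and 14.86 and the liquid arrays 9.85, 9.90 and 10.29. That difference of 4.87 ± 0.29 was 29.2-fold (limma adjusted p = 1.48e-23), where 39.3% of genes were higher. It did not differ detectably from the one in SD, at 0.47 ± 0.41 with a 95% interval of -0.36 to 1.29 (limma adjusted p = 0.355). SLAD minus SD was 0.07 ± 0.29 on agar and -0.40 ± 0.29 in liquid, and neither passed (limma adjusted p = 0.914 and 0.231).

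In SG the agar and liquid arrays overlapped. Wild-type on SG agar read 14.63, 14.87 and 14.78, and in SG liquid 14.87, 14.95 and 14.36, where array C was the lowest and also lay farther from its group over the whole array. Agar minus liquid was 0.03 ± 0.29 with a 95% interval of -0.55 to 0.62 (limma adjusted p = 0.931). SG minus SD on agar was -0.05 ± 0.29 (limma adjusted p = 0.890). SG liquid exceeded SD liquid by 4.32 ± 0.29, a 19.9-fold ratio (limma adjusted p = 3.33e-21), where 43.2% of genes were higher and 34.9% lower. The agar difference in SG differed from that in SD by -4.37 ± 0.41 (limma adjusted p = 6.18e-14), where 24.3% of genes had a smaller agar difference in SG. The agar groups of both media are near the top of the range, as are 2 of the 3 SG liquid arrays. Whether this limited the agar difference in SG was not tested.

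The arrays labelled PGAL1-FLO11 gave the highest FLO11 values of the series in SG: 15.21, 15.25 and 15.18 on agar and 15.22, 15.16 and 15.18 in liquid. All 6 lay above every wild-type SG array, which reached 14.87 on agar and 14.95 in liquid. The differences from wild-type of 0.45 ± 0.29 on agar and 0.46 ± 0.29 in liquid did not pass (limma adjusted p = 0.691 and 0.163). Agar minus liquid was 0.03 ± 0.29 in SG (limma adjusted p = 0.959). In SD the same label read 14.58, 14.55 and 14.37 on agar and 11.07, 10.52 and 10.33 in liquid, a difference of 3.86 ± 0.29 (limma adjusted p = 1.91e-17) that again was the highest of all genes, where 20.8% were higher and 21.7% lower. It did not differ detectably from wild-type (-0.54 ± 0.41, limma adjusted p = 0.415). SG exceeded SD by 4.55 ± 0.29 in liquid (limma adjusted p = 1.67e-21) and by 0.71 ± 0.29 on agar (limma adjusted p = 0.0284), in comparisons where 31.4% and 36.3% of genes were higher. The agar call is lost when any 1 of 4 arrays is left out, with adjusted p up to 0.0800, and when arrays are centred on their medians, at 0.61.

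**Figure D2:**
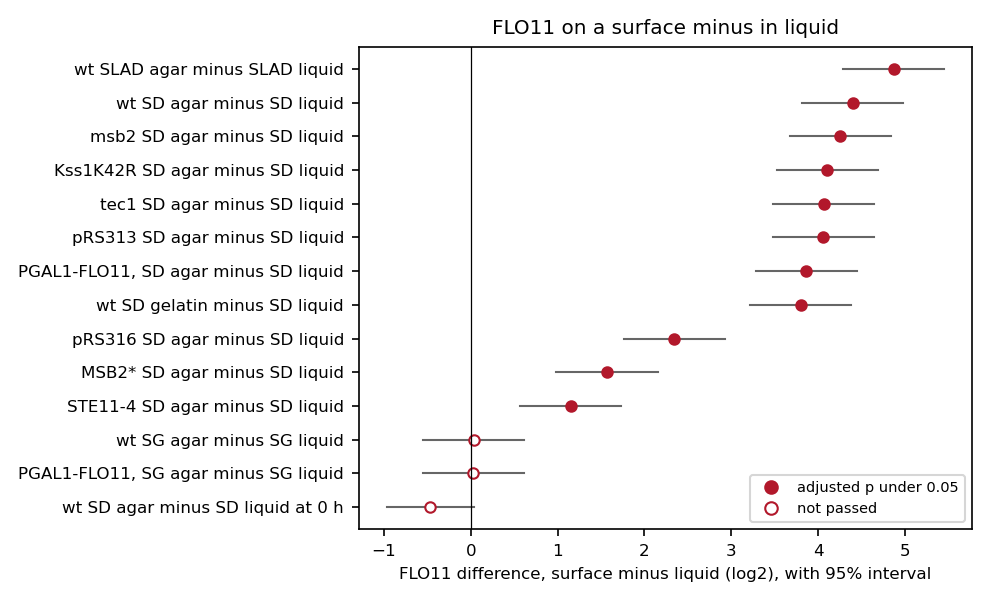
FLO11 difference between a surface and liquid (log2, horizontal axis) in each strain, medium and time other than the flo11 strain, with 95% intervals from limma. Filled points passed an adjusted p under 0.05. The differences run from 4.87 in SLAD to 0.03 in SG and -0.47 at 0 h, with pRS316, MSB2* and STE11-4 between 2.34 and 1.15.

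Strains altered in the MAP kinase or lacking its transcription factor showed high FLO11 on agar and low FLO11 in liquid, as wild-type did. Kss1K42R read 14.43, 14.24 and 14.55 on agar and 10.21, 10.36 and 10.34 in liquid, a difference of 4.11 ± 0.29 (limma adjusted p = 1.10e-18). The tec1 strain read 13.67, 14.32 and 14.54 on agar and 9.85, 10.59 and 9.90 in liquid, a difference of 4.07 ± 0.29 (limma adjusted p = 1.65e-18). FLO11 had the highest change of all genes in both strains, where 20.1% of genes were higher and 23.3% lower in Kss1K42R and 18.2% and 23.3% in tec1. Against wild-type the agar difference was smaller by 0.29 ± 0.41 in Kss1K42R, with a 95% interval of the change of -1.12 to 0.53, and by 0.33 ± 0.41 in tec1, with an interval of -1.16 to 0.49. Neither passed (limma adjusted p = 0.767 and 0.670), and the intervals leave room for a loss of about 1 log2.

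On agar itself all 3 arrays of each mutant lay below all 3 wild-type arrays. The difference was -0.41 ± 0.29 for Kss1K42R and -0.63 ± 0.29 for tec1 (limma adjusted p = 0.471 and 0.207). In liquid the values were -0.11 ± 0.29 and -0.30 ± 0.29 with overlapping arrays (limma adjusted p = 0.803 and 0.464). Between tec1 and Kss1K42R, FLO11 differed by -0.23 ± 0.29 on agar and -0.19 ± 0.29 in liquid, and neither passed (limma adjusted p = 0.9997 and 1).

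The msb2 knockout read 15.05, 15.03 and 15.06 on agar and 10.67, 10.73 and 10.98 in liquid. Agar exceeded liquid by 4.26 ± 0.29 (limma adjusted p = 9.43e-19), where 19.8% of genes were higher and 21.8% lower, and FLO11 ranked 4 by its change. Against wild-type, the agar arrays lay 0.23 ± 0.29 higher and the liquid arrays 0.38 ± 0.29 higher, without overlap in either case and without passing (limma adjusted p = 0.582 and 0.311). Against pRS316 in liquid, msb2 was 1.92 ± 0.29 lower (limma adjusted p = 5.50e-07, with 11% of genes lower), while on agar it differed by -0.01 ± 0.29 (limma adjusted p = 0.989). The agar difference was 1.91 ± 0.41 larger in msb2 than with pRS316 (limma adjusted p = 0.00159, with 5.07% of genes larger) and 0.14 ± 0.41 smaller than in wild-type (limma adjusted p = 0.847). URA3, read above, is at background in msb2 and wild-type and high with pRS316, and its part in these differences was not tested.

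The bare plasmids did not read alike. pRS313 gave 14.09, 13.99 and 14.25 on agar and 9.96, 10.03 and 10.15 in liquid, a difference of 4.06 ± 0.29 (limma adjusted p = 5.66e-18). It ranked 1 by its change, where 5.85% of genes were higher and 14.1% lower. pRS316 gave 15.09, 15.00 and 15.08 on agar and 12.14, 13.13 and 12.87 in liquid, a difference of 2.34 ± 0.29 (limma adjusted p = 2.00e-09), where 18.7% were higher and 23.4% lower. In liquid pRS316 exceeded pRS313 by 2.66 ± 0.29 and wild-type by 2.30 ± 0.29 (limma adjusted p = 9.18e-11 and 2.99e-09), where 9.69% and 28.6% of genes were higher. On agar it exceeded pRS313 by 0.95 ± 0.29 (limma adjusted p = 0.0102, with 16.1% of genes higher). In the fit over all arrays this was the only comparison between strains on agar that passed, among those made, apart from flo11 against wild-type. Fitted on their own arrays alone, Kss1K42R, msb2, pRS313 and pRS316 against wild-type on SD agar also passed, as did PGAL1-FLO11 on SG agar. The agar difference with pRS316 was 2.06 ± 0.41 smaller than in wild-type (limma adjusted p = 1.38e-04, with 14.6% of genes smaller). For pRS313 it differed from wild-type by -0.34 ± 0.41 (limma adjusted p = 0.577).

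With the STE11-4 allele FLO11 was high in liquid as well as on agar. Its arrays read 14.19, 13.98 and 14.37 on agar and 12.44, 12.72 and 13.92 in liquid. In liquid it exceeded pRS313 by 2.98 ± 0.29, a 7.89-fold ratio that ranked 6 among all genes (limma adjusted p = 1.82e-12, with 8.28% of genes higher and 7.96% lower). On agar the arrays overlapped those of pRS313, at 0.07 ± 0.29 (limma adjusted p = 0.976). Agar minus liquid with STE11-4 was 1.15 ± 0.29 (limma adjusted p = 0.00146, with 15.5% of genes higher and 16.4% lower). This is 2.91 ± 0.41 less than with pRS313 (limma adjusted p = 1.40e-06, with 2.35% of genes smaller). Liquid array C stood near the agar arrays. Leaving out 1 array at a time put the agar difference between 0.86 and 1.60, and a fit on these 6 arrays alone gave an adjusted p of 0.0956 by limma.

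MSB2* read 14.90, 14.85 and 14.82 on agar and 12.99, 13.02 and 13.86 in liquid. The agar difference was 1.57 ± 0.29 (limma adjusted p = 3.75e-05, with 7.67% of genes higher and 10.1% lower). In liquid, where pRS316 was itself high, MSB2* exceeded it by 0.58 ± 0.29, with overlapping arrays (limma adjusted p = 0.157). On agar it read 0.20 ± 0.29 below pRS316 (limma adjusted p = 0.765). The agar difference was 0.78 ± 0.41 smaller than with pRS316 and did not pass (limma adjusted p = 0.427). Against wild-type the allele and its plasmid cannot be told apart.

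Over all 9 SD strains other than flo11, FLO11 was called higher on agar in 9 of 9. It was 1 of 33 genes so called, 0.606% of the genes tested, and had the highest median change of them at 4.06.

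Genes that act on FLO11, or resemble it, were read in the same comparisons. Of the other FLO family adhesins, FLO9 and FLO10 were lower on SD agar in wild-type: FLO9 fell by 0.92, FLO10 fell by 0.79 and FLO1 read -0.28 ± 0.17 (limma adjusted p = 9.38e-06, 9.12e-04 and 0.164). That is 0 of 3 measured genes higher and 2 lower, where 30.8% of all genes were higher and 21.1% lower, and the median of the 3 was -0.79 beside 0.09 over all genes. The FLO9 probe set shares probes with other sequences, and FLO5 was not measured. Over the 9 strains FLO1, FLO9 and FLO10 were called higher on agar 1 time between them, FLO10 with MSB2*. Of 14 other cell wall mannoproteins, 10 fell and 1 rose in wild-type, with a median of -0.67. HPF1, a wall mannoprotein, fell by 2.66 and was lower on agar in 9 of 9 strains, CWP1 fell by 2.39 and PIR3 fell by 2.46, while TIR1 rose by 0.43 ± 0.15, a call lost in wild-type after either rescaling. TIR1 was higher on agar in 8 of 9 strains, with a median of 0.63, and by 0.82 ± 0.15 in the flo11 strain.

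Of 9 genes of the cascade that feeds Ste12 and Tec1, 4 were higher and 2 lower on agar in wild-type, where 30.8% of all genes were higher and 21.1% lower. Their median was 0.13 beside 0.09 over all genes. KSS1 rose by 0.48 ± 0.10, STE50, an adaptor of Ste11, by 0.40 ± 0.13, the kinase gene STE7 by 0.25 ± 0.10 and the osmosensor SHO1 by 0.15 ± 0.06. STE11 fell by 0.33 and the GTPase gene CDC42 fell by 0.21. The count became 2 higher and 3 lower when arrays were quantile normalized or centred. STE11 was the one member that was lower in all 9 strains. Of 14 activators of FLO11, 2 were higher and 3 lower, against the same shares, or 1 and 4 after either rescaling. STE12 rose by 0.50 ± 0.13 and the kinase gene SNF1 by 0.17 ± 0.07, while among the transcription factor genes ASH1 fell by 0.69, PHD1 fell by 0.44 and GCN4 fell by 0.14. TEC1 read -0.12 ± 0.13 and did not pass. The median of the 14 was -0.02.

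Among 12 measured repressors, 3 were higher and 2 lower in wild-type, near the 30.8% and 21.1% of all genes, with a median of -0.11. Both zinc-finger repressors of glucose repression were lower, where NRG1 fell by 2.13 and NRG2 fell by 1.05 (limma adjusted p = 1.18e-08 and 3.68e-05). SOK2, TPK3, a catalytic subunit of protein kinase A, and the histone deacetylase gene HDA1 rose by 0.34, 0.59 and 0.47. Across strains NRG1 moved both ways. It was lower on agar in 6 of 9 strains, and in the arrays labelled PGAL1-FLO11 it fell by 3.26. It read -0.10 ± 0.29 in msb2, where FLO11 was 4.26 higher, and was higher on agar by 1.35 ± 0.29 with pRS316 and 1.03 ± 0.29 with MSB2*, where FLO11 also rose. In the flo11 strain, where 12.1% of genes were higher and 19.4% lower, NRG1 fell by 1.34 (limma adjusted p = 1.83e-04). MGA1, a heat-shock-factor-like activator gene, likewise split: it was higher on agar in msb2, pRS316 and MSB2* and lower in 4 of the others.

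**Figure D3:**
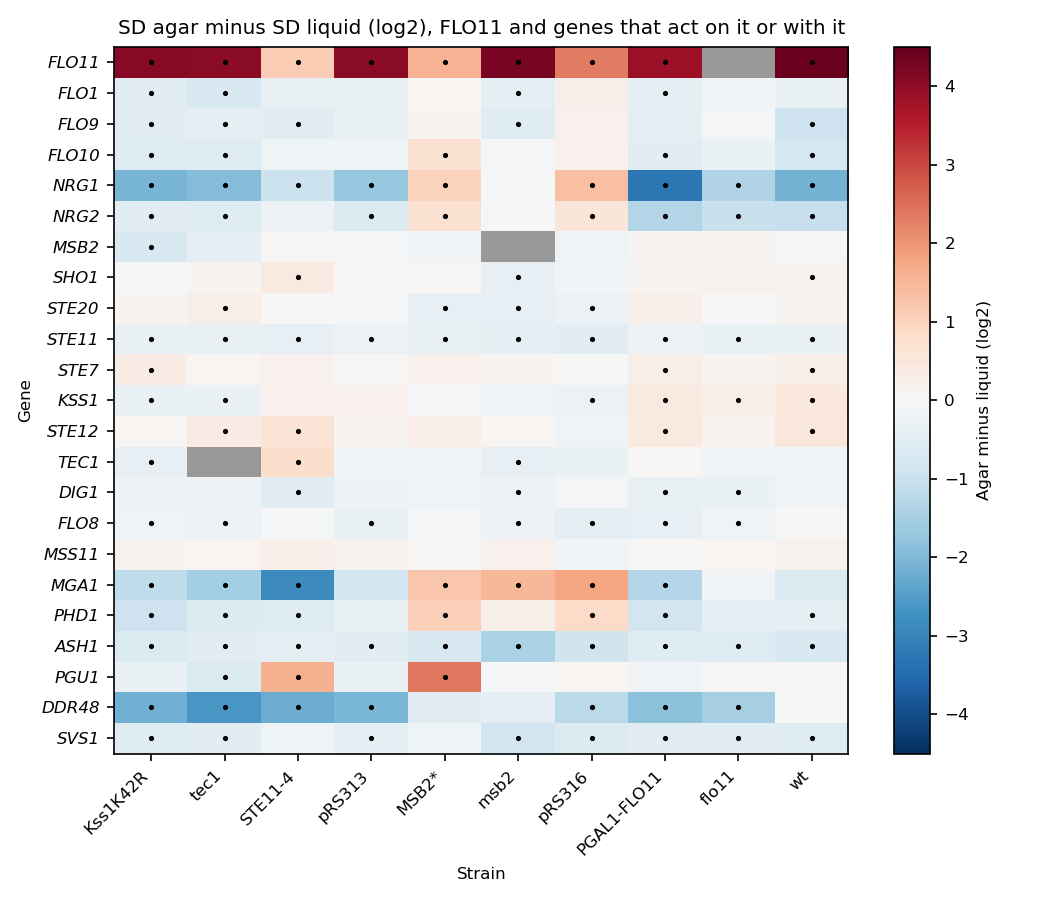
Agar minus liquid in SD medium (log2, colour) for FLO11 and genes of its family, its cascade, activators, repressors and targets (rows) in 10 strains (columns). Dots mark an adjusted p under 0.05 and grey cells the deleted gene of that strain. The FLO11 row is red in all 9 strains that hold the gene, while NRG1 and MGA1 change colour between strains.

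Other targets of Ste12 and Tec1 were read beside FLO11. Their list shares TEC1 with the activators and MSB2 and KSS1 with the cascade, so the counts of these lists are not separate. Of 10, 2 were higher and 1 lower on SD agar in wild-type, where 30.8% and 21.1% of all genes were. Their median was -0.06, and 1 was higher after either rescaling. PGU1, the secreted endopolygalacturonase gene, named here after its values were seen, read 5.94, 6.24 and 6.16 on agar and 6.16, 6.31 and 5.92 in liquid in wild-type. With STE11-4 it read 9.84, 9.48 and 10.17 in liquid, against 6.10, 6.17 and 5.78 with pRS313, a difference of 3.81 ± 0.19 (limma adjusted p = 9.32e-26). In that liquid comparison 8 of 10 targets were higher and 0 lower, where 8.28% and 7.96% of all genes were. The median of the 10 was 0.69 beside -0.05 over all genes. DDR48, a stress gene, was higher by 2.39 ± 0.25 and SVS1, a wall protein gene, by 1.27 ± 0.12. STE11, which the plasmid carries, was 1.01 ± 0.07 higher. With MSB2* against pRS316 in liquid 9 of 10 targets were higher and 0 lower, where 10.1% and 10.2% of all genes were. PGU1 was higher by 5.04 ± 0.19 there, in a comparison in which FLO11 did not pass. The list holds MSB2, which the plasmid carries.

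For pRS316 against wild-type in liquid, 7 of 10 targets were higher and 0 lower, where 28.6% of all genes were higher and 11.5% lower. Among 14 activators 5 were higher and 1 lower, and among 12 measured repressors 1 was higher and 2 lower, beside those shares. TEC1 was 0.99 ± 0.13 higher and NRG1 fell by 1.25 (limma adjusted p = 2.42e-09 and 3.40e-04), while PGU1 stayed between 5.86 and 6.21 in pRS316 liquid. For SG against SD in wild-type liquid, 9 of 14 activators were higher and 2 lower, where 43.2% of all genes were higher and 34.9% lower. TPK2, the kinase A subunit that activates FLO11, was higher by 2.31 ± 0.16, RME1 by 1.62 ± 0.10 and TEC1 by 0.81 ± 0.13. The 2 lower activators were STE12 at -0.52 ± 0.13 and ASH1 at -0.45 ± 0.11. Of the 12 repressors 2 were higher and 4 lower, the lower share near that of all genes. The 2 higher ones were YAK1 by 2.24 ± 0.17 and NRG2 by 0.75 ± 0.21. Among 10 targets 6 were higher and 0 lower. PGM2 was the highest of them at 5.12 ± 0.35 and DDR48 followed at 4.78 ± 0.25, while PGU1 read -0.29 ± 0.19 and did not pass. For 6 h against 0 h in SD liquid, in which FLO11 fell, 9 of 14 activators were lower and 1 higher, where 35.5% of all genes were lower and 20.3% higher, with a median of -0.40 beside -0.12 over all genes. TPK2 fell by 1.31 and MGA1 fell by 1.13.

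The genes whose pattern was most like that of FLO11 were chosen by Pearson correlation over 27 group means, among 3570 genes with a span of at least 1 log2. The highest were ATP19 and MRPL25 at 0.88, PDH1 and ACH1 at 0.87, ATP20 at 0.86 and CRC1 at 0.85. ATP19 and ATP20 encode subunits of the mitochondrial ATP synthase, MRPL25 a mitochondrial ribosomal protein, PDH1 a protein of propionate metabolism, ACH1 an acetyl-group transferase and CRC1 the mitochondrial carnitine carrier. The lowest were TVP38 at -0.88, YBL029W at -0.87 and OPT1 and YNR065C at -0.85, of which OPT1 encodes an oligopeptide transporter. No gene passed 0.9, and 38 passed 0.8. The choice depends on the measure, since 1 of the 6 highest stayed among the 6 highest by Spearman's rho and 3 over SD groups at 6 h alone. The groups share a platform, the normalization and, in many cases, a medium, and these values carry no p.

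Their slopes on FLO11 were shallow, from 0.15 to 0.60 log2 per log2 for the 6 highest. The flo11 strain was left out of that choice. In it 4 of the 6 highest genes were called higher on agar. All 6 had been chosen on a pattern in which agar and liquid groups differ, and all were called higher on agar in wild-type. Higher calls in another strain are thus partly given by the choice. The 12.1% of all genes given above is therefore no matched reference for them. In the flo11 strain PDH1 stood at 12.33 ± 0.04 on agar and 10.76 ± 0.13 in liquid, against 12.52 ± 0.09 and 10.76 ± 0.04 in wild-type (SD, n = 3 each). CRC1 was 2.37 ± 0.27 higher on agar in the flo11 strain and 2.26 ± 0.27 in wild-type. ATP19 and MRPL25 did not pass there, at 0.14 ± 0.12 and 0.16 ± 0.16. Of the 4 lowest, YBL029W fell by 1.66 and OPT1 fell by 0.79 on agar there, and 2 did not pass.

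**Figure D4:**
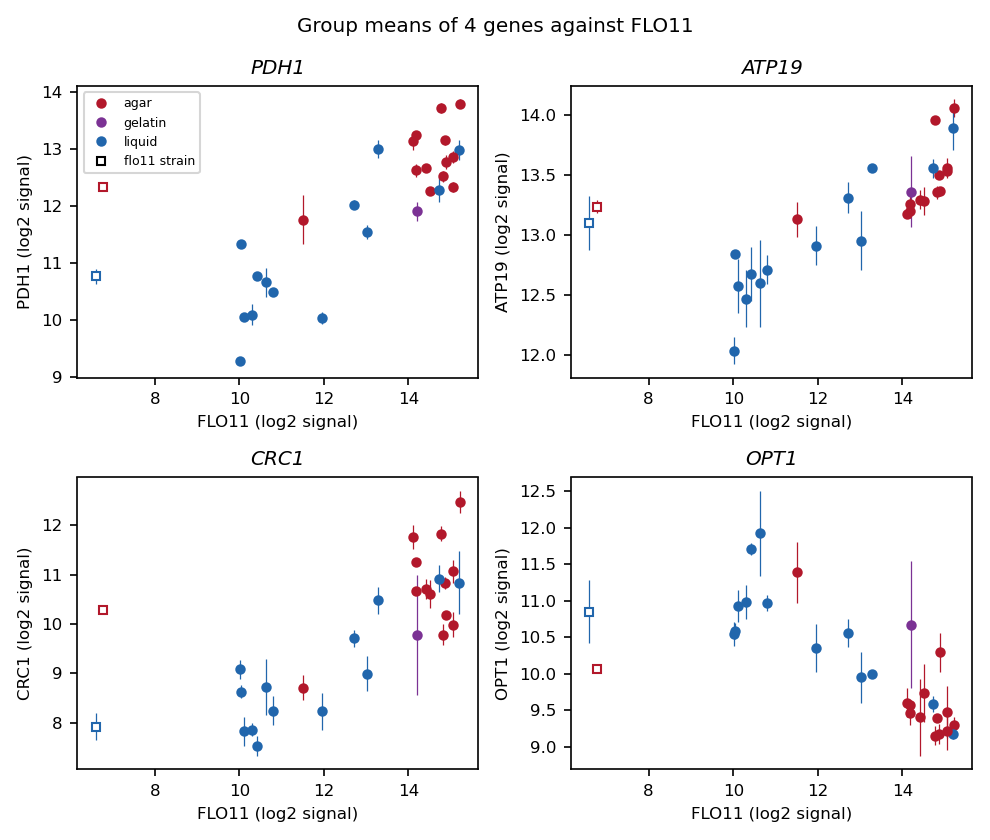
Group means of PDH1, ATP19, CRC1 and OPT1 (vertical axes, log2 signal, bars are SD) against those of FLO11 (horizontal axes, log2 signal). Circles are the 27 groups used for the correlation and open squares the flo11 strain. In that strain PDH1 and CRC1 are higher on agar than in liquid while FLO11 stays at its floor.

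The genes next to FLO11 on its chromosome, by the RefSeq gene order, are described for wild-type on SD agar against liquid. On one side YIR018C-A read -0.21 ± 0.14, YAP5, a transcription factor gene of the iron response, rose by 1.11 ± 0.21, and MET28, a regulator gene of sulfur metabolism, fell by 0.71. Over the 9 strains YAP5 was called higher on agar in 5, and MET28 was called lower in 5. On the other side MRS1, a mitochondrial splicing gene, read -0.03 ± 0.09, YIR021W-A was below background, and SEC11, a signal peptidase gene, fell by 0.36 and was lower in 4 of 9 strains. The noncoding RNA genes of the FLO11 promoter were not analysed here. The correlation with FLO11 over 27 group means was 0.55 for YAP5 and between -0.63 and 0.16 for the other neighbours.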

How the data were processed

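The deposited values are log2 signals of 10928 probe sets on 90 arrays, made with RMA per the submitters' processing notes. The sources used here give neither its version nor its settings. RMA summarises probe brightness per probe set and forces a common distribution on the arrays it is given. The array medians ran from 6.76 to 7.23. Of the probe sets, 7244 name 1 gene, 1 names several and 3683 name none, and 5498 match the S. cerevisiae gene table. The brightest probe set was used for 47 genes with several, leaving 5449. The 6 arrays of wild-type SD agar at 0 h carry fewer decimals.

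Groups came from the labels. With 1 mean for each group, a linear model was fitted by limma 3.58.1 in R 4.3.3 (2-sided, Benjamini-Hochberg over genes, 61 residual degrees of freedom), giving 60 comparisons of FLO11 apart from those of the flo11 knockout. The script was tested on simulated data. P-values rest on the spread of each gene pooled over all 29 groups, not on that of the compared arrays alone. For FLO11 that SD was 0.36. The median SD of the 6 h groups was 0.08 on agar and 0.28 in liquid. Comparisons of agar groups are therefore held to a wider spread than most of those groups show. The number of arrays limits the precision. Lists are given as counts and medians. Named genes are FLO11, the genes that check a label, members of the FLO family, cascade, activator and repressor lists that passed between SD agar and SD liquid in wild-type, the 6 highest and 4 lowest correlations and the 3 nearest genes on each side. FLO1, MGA1, TPK2, RME1, YAK1, PGU1, PGM2, DDR48, SVS1 and the wall genes HPF1, CWP1, PIR3 and TIR1 fall outside this rule and were chosen after their values were seen. The members and lists were chosen with earlier results of these data known. Alternatives were quantile normalization, centring on the array median, an intensity trend in the variance prior, leaving out the dimmest 25% of genes, fitting each comparison to its own arrays alone, a replicate block, using one set of 3 of the 0 h agar arrays (A, B and C, or D, E and F), other percentiles for the top of the range, and leaving out each array.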

Additional observations from a re-analysis of the deposited data

Results flagged for a closer look

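In 5 comparisons the agar effect on FLO11, agar minus liquid on the log2 scale, differed between groups by limma's test of the difference itself. It was lower in STE11-4 than in pRS313 by a difference of -2.91 and lower in pRS316 than in wild-type by a difference of -2.06. It was higher in msb2 than in pRS316, by 1.91. It was lower in SG than in SD in wild-type, by a difference of -4.37, and higher at 6 h than at 0 h in wild-type SD, by 4.87. In the first 4 of these the agar groups differed by at most 0.24 and the liquid groups by 1.92 or more. Except for STE11-4 against pRS313, both agar groups there were near the top of the range, and whether this narrowed their difference was not tested. Both comparisons with pRS316 rest on the same pRS316 arrays, and msb2 is not matched to pRS316 in URA3. The agar effect in msb2 did not differ detectably from wild-type (-0.14 ± 0.41, limma adjusted p = 0.847). No array of the 6 at 0 h on SD agar stood apart by Dixon's test, whose ratio was 0.46. That test looks for an outlying array and cannot show a split into sets. Arrays A to C and D to F overlapped in FLO11, TEC1, STE11, PGU1 and HIS3. They did not overlap in PDH1, CRC1, GAL1, MSB2, NRG1, NRG2 and URA3, of which URA3 was below the background limit. Only these genes, read array by array for other reasons, were compared. The share of all genes without overlap was not counted, so whether the arrays form separate sets was not tested. PDH1 read 11.35, 11.37 and 11.40 in A to C and 11.99, 12.34 and 12.06 in D to F.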

How the results depend on the processing

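Of 60 FLO11 comparisons, 26 were called. Over 366 recomputations with another scaling, filter or fit, 351 kept their direction and side of the threshold. Of the called comparisons, agar against liquid with STE11-4 lost its call fitted on its own arrays (1.15, limma adjusted p = 0.0956), and SG against SD agar in PGAL1-FLO11 lost it when arrays were centred (0.61, limma adjusted p = 0.0697). Agar against liquid at 0 h gained a call with agar arrays A to C alone (-0.74, limma adjusted p = 0.0196) and not with D to F alone (-0.19, limma adjusted p = 0.616). Fitted on their own arrays, 10 comparisons passed that did not pass in the fit over all arrays. Against wild-type these were Kss1K42R (-0.41), msb2 (0.23), pRS313 (-0.70) and pRS316 (0.24) on SD agar, PGAL1-FLO11 on SG agar (0.45), and msb2 (0.38) and pRS313 (-0.36) in SD liquid. The others were SLAD against SD in liquid (-0.40) and the difference of the agar effect for pRS313 against wild-type (-0.34) and SLAD against SD (0.47). Centring turned msb2 against pRS316 on agar to 0.016, the only reversal among those 366. The array medians over the genes tested, averaged within each group, differed between groups by over 0.1 in 7 of 50 comparisons. The largest such difference was 0.174, for wild-type SG against SD liquid. Centring moved FLO11 by at most 0.174 and quantile normalization by at most 0.15. At the 99th percentile 4 groups were near the top, against 8 at the 98th.

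With 1 array left out at a time, 430 of 447 values kept direction and call. Ranges with a lost or gained call were 0.65 to 0.75 for SG against SD agar in PGAL1-FLO11 and -0.76 to -0.13 for agar against liquid at 0 h. In comparisons that never passed, signs turned within -0.15 to 0.15 for SG agar against liquid, -0.41 to 0.023 for tec1 against Kss1K42R on agar, -0.041 to 0.0086 for msb2 against pRS316 on agar, -0.025 to 0.17 for STE11-4 against pRS313 on agar, -0.11 to 0.013 for SG against SD agar and -0.22 to 0.21 for tec1 against Kss1K42R in agar minus liquid.

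The replicate letters were not taken as pairs: the deviations of same-lettered arrays correlated between -0.350 and 0.408, and in 1 of 16 surface comparisons every pair passed 0.1. With the letters as a replicate block, agar against liquid at 0 h passed (-0.74, limma adjusted p = 0.0178), and no other FLO11 call changed. Letters D to F occur only in the 0 h agar group, so the block fits those arrays exactly. That value therefore rests on agar arrays A to C and is not separate from the fit with those alone.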
